A study of Mus musculus with 6 samples.

Results

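RNA sequencing libraries whose deposited files are named for a Ptbp1 knockout (KO) were set against libraries whose files are named basal, at rest and under tumour necrosis factor (TNF). Members were taken by file name and not by the sample label, which gave 4 of the 6 libraries in the series. They were 2 KO-named libraries (1 at rest, 1 with TNF) and 2 basal-named libraries (1 at rest, 1 with TNF). The 2 further libraries, named rescue, served only as a side comparison. Per the labels the cells were a mouse aortic endothelial line made to grow by SV40 under doxycycline control, expanded in doxycycline and then taken off it, and TNF was given at 30 ng/mL. The knockout was made by CRISPR and is 1 single cell clone, and the rescue is described as carrying a human PTBP1 cDNA in that clone. The sources used here give neither the strain nor the age of the mice. Basal was read as the parental line, which the file names do not state. Each line had 1 library per treatment and no replicate culture. What sets the clone apart from its parent and what follows loss of Ptbp1 therefore cannot be told apart.

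Sample labels and file names disagreed for 3 of these 4 libraries. The KO-named library at rest was labelled as rescue without TNF, and the KO-named library with TNF was labelled as the parental line with TNF. The basal-named library with TNF was labelled as the knockout without TNF, and only the basal-named library at rest had the label its name reads. Under the labels' groups the libraries labelled as the knockout (with and without TNF) were compared with those labelled as the parental line (with and without TNF), and edgeR's quasi-likelihood test called 0 of 12525 genes, with 105 at an unadjusted p under 0.05. "KO-named" and "basal-named" below always refer to the file names, and every direction rests on them.

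Ptbp1 is a polypyrimidine tract binding protein. It binds pyrimidine-rich RNA beside many exons and mostly keeps those exons out of the messenger RNA, although some exons need it for inclusion. One of its best known targets is a 34-nt exon of its paralogue Ptbp2: when Ptbp1 keeps the exon out, the reading frame of Ptbp2 is broken and the message is degraded, so Ptbp2 protein appears where Ptbp1 is low, as in neurons.

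Gene-level counts came to between 19601426 and 21461805 per library. Many endothelial markers were near 0 in both lines. Of 21 endothelial markers, 12 stood under 1 CPM (the usual read count scaled to library size, here with TMM factors) in all 4 libraries, and Cldn5 and Sox17 were listed at 0. Their summed level was 26.1 and 37.4 CPM in the KO-named libraries (rest, then TNF) and 27.8 and 68.8 CPM in the basal-named libraries. Smooth muscle contractile genes summed to 3704 and 3566 CPM in KO-named cells and 4192 and 4219 CPM in basal-named cells. Blood cell markers summed to 24.3 and 33.2 CPM in KO-named cells and to 31.7 and 135.8 CPM in basal-named cells, with Ptprc and Tyrobp listed at 0, and the part of other cell types in the results was not tested. In bulk RNA, fewer cells of a type and less RNA per cell cannot be told apart.

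Ptbp1 messenger RNA was not lower in the KO-named libraries. It stood at 387.2 and 423.8 CPM (rest, then TNF) in KO-named cells, against 338.5 and 422.9 CPM in basal-named cells, a log2 fold change of 0.10 ± 0.10 with an adjusted p of 0.518 by edgeR's quasi-likelihood test. The rescue-named libraries had less Ptbp1 message than either line, at 174 and 187 CPM. The value after ±, here and for every gene below, is an SE worked back from the test's F statistic. The message differed instead in its junction reads, between exon 3 and exon 8 of the annotated transcript Ptbp1-201. Whether this came from splicing or from a change that CRISPR made in the gene was not tested. A junction from exon 3 straight to exon 8, which the annotation does not hold, had 36 and 41 reads in the KO-named libraries and 0 and 0 in the basal-named libraries. It made up 15.0% (95% exact binomial interval 10.7 to 20.2) and 14.2% (10.4 to 18.8) of reads leaving exon 3 in KO-named cells. In basal-named cells it was 0 of 192 reads, with an upper bound of 1.90%, and 0 of 291, with an upper bound of 1.26%. The rescue-named libraries also had 0 such reads, of 55 and 77 leaving exon 3. Their upper bounds, 6.49% and 4.68%, lie below the KO-named intervals. Intervals here cover counting error only, since reads without molecular identifiers are not independent molecules. The joined bases are shown with the end of exon 3 in lower case and the start of exon 8 in capitals (GRCm38, chr10:79858824-79860824, plus strand, first and last base given being the last of exon 3 and the first of exon 8).
Ptbp1 exon 3 joined to exon 8: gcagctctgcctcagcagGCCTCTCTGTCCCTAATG

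The exons passed over by that junction, 4 to 7, hold 777 nt together, a multiple of 3. Reads inside the passed-over stretch were not lost evenly. Exon 3 was joined to exon 4 by 204 and 248 reads in KO-named cells and by 192 and 291 in basal-named cells. Exon 7 was joined to exon 8 by 23 and 25 reads in KO-named cells and by 22 and 40 in basal-named cells. At rest reads over this junction were thus not lower in KO-named cells. They were few in both lines beside those from exon 6 to exon 7, given next, so they cannot show whether this edge of exon 7 was kept. Exon 6 was joined to exon 7 by 57 and 93 reads in KO-named cells, against 359 and 604 in basal-named cells. That is 21.6% and 27.8% of the reads over the exon 5 to 6 and exon 6 to 7 junctions in KO-named cells, and 59.4% and 61.9% in basal-named cells, with no overlap of the intervals. Rescue-named libraries had 0 of 67 and 0 of 78 reads there, which allows up to 5.36% and 4.62%. They thus differed from the KO-named libraries at this junction and at the one from exon 3 to exon 8. Whether the rescue-named and KO-named cells are of the same clone, as the labels describe, was not tested. The deposited psi values (percent spliced in, the share of transcripts that include a part, on a scale of 0 to 1) of the 30-nt start of exon 4 were 0.854 and 0.849 in KO-named cells and 1.00 and 1.00 in basal-named cells. Exon 7, of 175 nt, had 0.846 and 0.850 in KO-named cells and 1.00 and 1.00 in basal-named cells. Where the CRISPR guides cut is not given in the sources used here.

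Ptbp2 rose in both treatments. It stood at 218.4 and 191.5 CPM in KO-named cells, against 38.2 and 37.8 CPM in basal-named cells (log2 fold change 2.43 ± 0.11, adjusted p = 0.0205), and at 67.9 and 76.7 CPM in rescue-named cells. The 34-nt exon whose skipping silences Ptbp2 had a psi of 1.00 and 1.00 in KO-named cells and of 0.562 and 0.698 in basal-named cells (adjusted p = 0.0212 among cassette exon parts). In junction reads, the exon was skipped by 4 of 222 (1.80%) and 3 of 201 (1.49%) in KO-named cells. In basal-named cells it was skipped by 16 of 36 (44.4%, interval 27.9 to 61.9) and 13 of 43 (30.2%, interval 17.2 to 46.1), so the intervals of the lines do not overlap. In rescue-named cells skipping was 10.8% and 5.77%. The exon lies at chr3:119724612-119724645 (GRCm38, minus strand) and is shown in capitals because the Ptbp2 result turns on it. Lower case marks 12 bases of each neighbouring exon, here and in the sequences that follow, all taken from GENCODE vM21 transcripts.
Ptbp2 34-nt exon: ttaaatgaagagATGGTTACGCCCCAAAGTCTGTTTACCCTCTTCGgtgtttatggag

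The other members of the family and its cofactors did not pass the test. Ptbp3 stood at 108.0 and 107.5 CPM in KO-named cells, against 73.7 and 116.0 CPM in basal-named cells (log2 fold change 0.23 ± 0.20, adjusted p = 0.463). Ptbp2 was the only one of 9 tested members of the PTB family and cofactor list past the threshold, beside 4.81% of all genes tested that were called higher. Among 29 tested regulators of splicing from other families, 1 was higher and 3 were lower, beside 5.41% of all genes tested that were called lower. With the authors' second quantification of the same libraries 0 were higher and 1 was lower, and neither Srsf7 nor Rbm47 was called. Srsf7, a splicing activator, was at 110.6 and 129.4 CPM in KO-named cells and at 76.8 and 83.8 CPM in basal-named cells (0.58 ± 0.09). Rbpms, which drives smooth muscle splicing, was at 0.787 and 0.506 CPM in KO-named cells and at 7.58 and 10.9 CPM in basal-named cells (-3.79 ± 0.38). Rbm47, an RNA-binding protein, was at 0.0983 and 1.62 CPM in KO-named cells and at 2.70 and 12.7 CPM in basal-named cells (-3.36 ± 0.44).

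**Figure D1:**
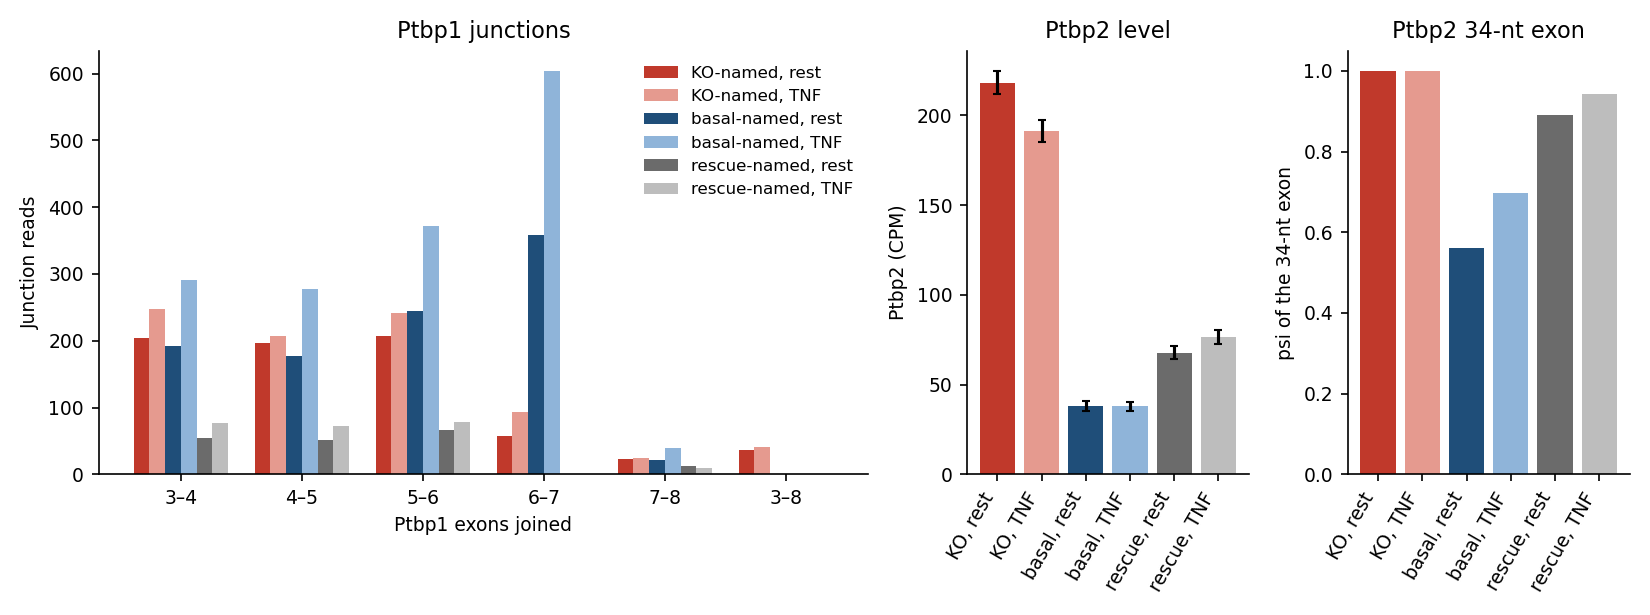
Left, reads over 6 junctions of Ptbp1 in each library. Middle, the Ptbp2 level in CPM with 95% Poisson counting intervals. Right, psi of the 34-nt exon of Ptbp2. Bars are single libraries, KO-named in red, basal-named in blue and rescue-named in grey, with TNF in the paler shade. The exon 3 to 8 junction has 36 and 41 reads in the KO-named libraries and 0 in the other 4.

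Most splicing calls were cassette exons, and most of those were included more in KO-named cells. The authors' splicing nodes are parts of genes between neighbouring splice sites. Nodes with 20 or more reads in all 4 libraries were tested, and a node was called where the adjusted p was under 0.05 and psi differed by 0.1 or more in the same direction in both treatments. A first fit over all 140453 nodes with limma called 0, with 12127 at an unadjusted p under 0.05. That fit also called nothing when changes were planted in simulated data, so its 0 does not show that splicing was alike. A second fit, added after that result, tested each node type apart among nodes of intermediate psi and weighted them by reads. It called 117 of 3616 cassette exon parts, in 93 genes: 80 (2.21%) were included more and 37 (1.02%) less in KO-named cells. Its p-values rest on 1 residual degree of freedom and no replicate cultures. They borrow spread across the nodes of a type, so they cannot be compared between types. With all 6 libraries in the fit 194 parts were called, and from that fit 42 without KO-named rest, 39 without KO-named TNF, 200 without basal-named rest and 189 without basal-named TNF. Library losses given below for single exons are from the 6-library fit, which called each of those exons when all 6 were in it.

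Most called exon parts had a length that is a multiple of 3. Of the 80 included more, 61 (76.2%) had such a length, as did 25 of 37 (67.6%) included less, beside 49.4% of all 3616 tested. A part can be a piece of a longer exon, and whether the parts keep the reading frame was not tested. Short parts made up some of those included more: 15 of 80 (18.8%) had 27 nt or less, the size of a microexon, against 2 of 37 (5.41%) included less and 4.54% of all tested. A short part need not be a whole exon, and the Glmp part of 1 nt is among those included less. Parts included more had a median psi of 0.540 in KO-named cells and 0.077 in basal-named cells, and 43 of 80 averaged under 0.1 in basal-named cells. Parts included less had a median psi of 0.534 in KO-named cells and 0.861 in basal-named cells. Few of these genes differed in level: of 84 tested genes with a called cassette part, 7 were higher and 3 lower (11.9%), beside 8.34% of the 2145 tested genes with any tested cassette part.

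The exon parts that gained most inclusion included ones in genes of the cell cortex, the cytoskeleton and chromatin. In Phldb2, which anchors microtubules at the cell edge, a 183-nt exon had a psi of 0.917 and 0.895 in KO-named cells, against 0.0284 and 0.0207 in basal-named cells (adjusted p = 0.00382), so an exon almost absent from one line was nearly constant in the other. Palld, an actin bundling protein, gained a 51-nt exon with psi of 0.715 and 0.646 in KO-named cells and 0.0243 and 0.0087 in basal-named cells (adjusted p = 0.00576). Trip10, a membrane bending adaptor of Cdc42, had 0.710 and 0.730 for a 168-nt exon in KO-named cells and 0.0870 and 0.0831 in basal-named cells (adjusted p = 0.00829). In the chromatin protein Dpf2, which belongs to the BAF remodelling complex, a 42-nt exon had 0.666 and 0.665 in KO-named cells and 0.0563 and 0.0356 in basal-named cells (adjusted p = 0.00934). Pbrm1, a further remodelling subunit, had 0.920 and 0.928 in KO-named cells and 0.352 and 0.243 in basal-named cells for a part of 104 nt (adjusted p = 0.0299). Dennd1a, Col4a3bp, Kansl3, Mical2 and Gabbr1 complete the 10 largest, with mean psi differences between 0.606 and 0.714. In all 10 genes the libraries of the lines did not overlap, which choosing the largest differences largely fixes in advance. Dennd1a and Kansl3 lost their call when either KO-named library was left out, at psi differences of 0.58 to 0.71, as did Pbrm1 (0.57) and Col4a3bp (0.63) without KO-named TNF.

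Among the microexons, Ctnnd1 (p120 catenin, which holds cadherins at the membrane) gained an 18-nt exon, with psi of 0.916 and 0.919 in KO-named cells and 0.364 and 0.469 in basal-named cells. Dnm1, the dynamin of neurons, gained a 12-nt exon by a mean psi difference of 0.59. Mef2d, a muscle and neuron transcription factor, gained its 21-nt exon, with 0.538 and 0.481 in KO-named cells and 0.107 and 0.0893 in basal-named cells (adjusted p = 0.0368). These 3 and the Dpf2 exon are shown in capitals, since each has a length that is a multiple of 3: Dpf2 at chr19:5903731-5903772 (minus strand), Ctnnd1 at chr2:84612532-84612549 (minus), Dnm1 at chr2:32323179-32323190 (minus) and Mef2d at chr3:88161781-88161801 (plus), all GRCm38.
Dpf2 42-nt exon: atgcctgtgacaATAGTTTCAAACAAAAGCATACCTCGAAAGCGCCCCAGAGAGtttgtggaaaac
Ctnnd1 18-nt exon: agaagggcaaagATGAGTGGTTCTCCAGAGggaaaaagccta
Dnm1 12-nt exon: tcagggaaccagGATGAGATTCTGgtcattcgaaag
Mef2d 21-nt exon: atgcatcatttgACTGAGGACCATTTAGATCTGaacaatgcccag

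Other exons lost inclusion. In Scarb1, the receptor for high density lipoprotein, a 129-nt exon near the end of the message had a psi of 0.289 and 0.299 in KO-named cells, against 0.868 and 0.842 in basal-named cells (adjusted p = 0.00970). Skipping of this exon is known to give the receptor form SR-BII, with another cytoplasmic tail. Flnc, an actin crosslinking filamin, had 0.498 and 0.513 for a 99-nt exon in KO-named cells and 1.00 and 1.00 in basal-named cells (adjusted p = 0.00275). Ktn1, a kinesin receptor, had 0.145 and 0.147 for an 84-nt exon in KO-named cells and 0.626 and 0.634 in basal-named cells (adjusted p = 0.0121). Picalm, an adaptor of clathrin-coated vesicles, had 0.223 and 0.351 for a 24-nt exon in KO-named cells and 0.719 and 0.733 in basal-named cells (adjusted p = 0.0305). Myof, Osbpl9, Arhgef11, Glmp and Mlkl fell by mean psi differences of -0.470 to -0.413, and the Tpm2 exon below is the tenth. In each of these genes both KO-named libraries lay below both basal-named libraries, again largely fixed by that choice. Ktn1, Osbpl9, Arhgef11, Picalm and Mlkl lost their call when either KO-named library was left out, at psi differences of -0.53 to -0.33, and Myof when KO-named TNF was (-0.43). Picalm was also lost without basal-named TNF (-0.50). The Scarb1 exon (chr5:125281105-125281233, GRCm38, minus strand) is shown because it is the exon that lost most inclusion.
Scarb1 129-nt exon: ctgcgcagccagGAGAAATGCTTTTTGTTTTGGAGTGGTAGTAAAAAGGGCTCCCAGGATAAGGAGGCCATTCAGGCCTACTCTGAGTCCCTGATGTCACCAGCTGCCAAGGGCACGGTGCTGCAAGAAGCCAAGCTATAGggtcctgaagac

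**Figure D2:**
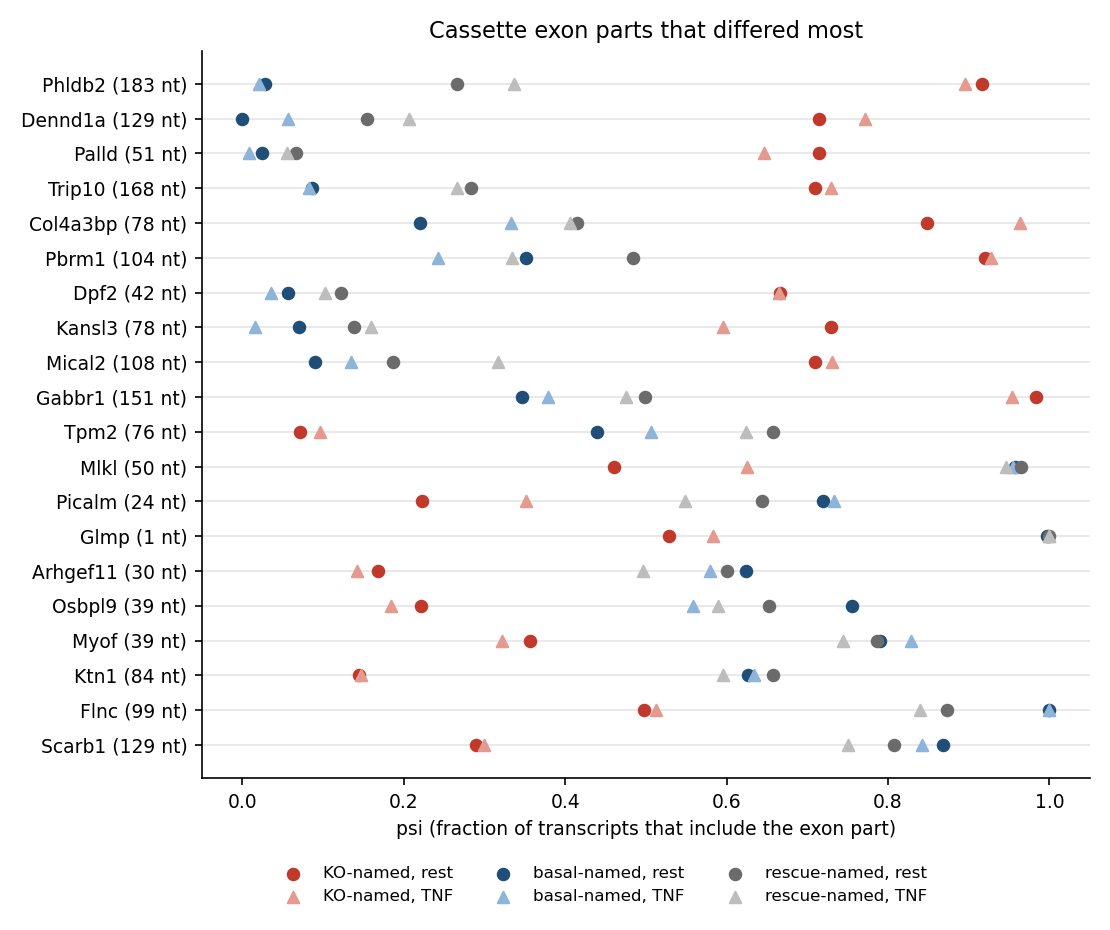
Psi (horizontal, 0 to 1) of the 10 cassette exon parts with the largest and the 10 with the most negative psi difference, 1 per gene, with length in brackets. Red points are KO-named, blue points basal-named and grey points rescue-named libraries, with circles for rest and triangles for TNF. Phldb2 has 0.917 and 0.895 in KO-named cells against 0.0284 and 0.0207 in basal-named cells. In every gene the red points stand clear of the blue, which choosing the largest differences largely fixes in advance.

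Of 27 genes in the files with exons known as repressed by or linked to PTB proteins, 24 had a tested node, and 12 cassette parts were included more and 5 less, of 50 tested, in 10 genes, beside 2.21% and 1.02% of all cassette parts tested. The list was chosen for known PTB targets with earlier results of these data known. The pyruvate kinase gene Pkm chooses between a pair of exons, and PTB is known to repress the one of the adult M1 enzyme in favour of the one of the M2 enzyme. The M1 exon had a psi of 0.333 and 0.335 in KO-named cells and 0.128 and 0.148 in basal-named cells (adjusted p = 0.00943). Its M2 partner had 0.667 and 0.665 in KO-named cells and 0.872 and 0.852 in basal-named cells (adjusted p = 0.00829), so M2 remained the major form in both lines. Both exons hold 167 nt, and 103 of 167 positions (61.7%) are identical. They are printed as a pair so that the choice can be read (chr9:59675029-59675195 and chr9:59675568-59675734, GRCm38, plus strand).
Pkm M1 exon: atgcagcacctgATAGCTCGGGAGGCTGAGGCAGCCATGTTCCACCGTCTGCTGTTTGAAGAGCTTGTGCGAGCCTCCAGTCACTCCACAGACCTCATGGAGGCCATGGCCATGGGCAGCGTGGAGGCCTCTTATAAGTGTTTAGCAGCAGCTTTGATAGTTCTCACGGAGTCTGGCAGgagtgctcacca
Pkm M2 exon: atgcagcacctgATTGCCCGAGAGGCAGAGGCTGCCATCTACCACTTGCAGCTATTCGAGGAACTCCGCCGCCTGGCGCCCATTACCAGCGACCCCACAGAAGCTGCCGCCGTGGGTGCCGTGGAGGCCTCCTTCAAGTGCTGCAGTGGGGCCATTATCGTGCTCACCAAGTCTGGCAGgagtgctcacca

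A like switch took place in Tpm2, which encodes the beta tropomyosin of actin filaments. The 76-nt exon nearer the 3′ end of the gene had a psi of 0.940 and 0.922 in KO-named cells and 0.592 and 0.517 in basal-named cells. Its partner, also of 76 nt, had 0.0718 and 0.0961 in KO-named cells and 0.439 and 0.506 in basal-named cells (adjusted p = 0.00390 for each). The pair shares 41 of 76 positions (53.9%). Nearer the 3′ end of the same gene, a 162-nt part set by an alternative acceptor had 0.937 and 0.923 in KO-named cells and 0.178 and 0.166 in basal-named cells (adjusted p = 1.42e-07). Tpm2 itself was at 389.5 and 342.0 CPM in KO-named cells and at 234.0 and 126.6 CPM in basal-named cells, a log2 fold change of 1.09 ± 0.20 that missed the threshold (adjusted p = 0.0563). The exons lie at chr4:43518644-43518719 and chr4:43519003-43519078 (GRCm38, minus strand).
Tpm2 exon, more in KO-named: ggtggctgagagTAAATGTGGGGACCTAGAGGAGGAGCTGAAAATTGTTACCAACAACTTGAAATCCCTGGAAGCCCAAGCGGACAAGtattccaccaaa
Tpm2 exon, less in KO-named: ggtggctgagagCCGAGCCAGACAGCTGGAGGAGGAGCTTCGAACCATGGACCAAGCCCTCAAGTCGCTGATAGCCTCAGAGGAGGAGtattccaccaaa

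Further PTB-linked genes changed beside Pkm, Tpm2, Ptbp2 and Mef2d. Lrrfip1 gained 5 cassette parts of 18, 48, 51, 78 and 93 nt, the largest change being the 78-nt part with 0.611 and 0.592 in KO-named cells and 0.179 and 0.157 in basal-named cells. Exoc7, a subunit of the exocyst, had 0.244 and 0.373 for a 39-nt exon in KO-named cells and 0.0325 and 0.0272 in basal-named cells (adjusted p = 0.0399). Dlg4, the synapse scaffold whose exon skipping by PTB degrades its message outside neurons, had 0.670 and 0.682 for a 110-nt part in KO-named cells and 0.333 and 0.338 in basal-named cells (adjusted p = 0.0373). Tpm1 gained a 79-nt exon, with 0.126 and 0.134 in KO-named cells and 0.0146 and 0.0118 in basal-named cells. Calls of Exoc7, Dlg4, Mef2d, the 175-nt part of Ptbp1 and every Lrrfip1 part but the one of 48 nt were lost when either KO-named library was left out. Those of Tpm1 and the 48-nt part were lost without KO-named TNF. The 2 Ptbp1 parts given above are counted among the 5 included less, and whether they reflect splicing was not tested.

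Other kinds of splicing changed in fewer nodes. Alternative acceptors were used more in 6 (0.381%) and less in 5 (0.318%) of 1574 tested, and alternative donors more in 4 and less in 4 (0.346% each) of 1156. Retained introns were higher in 5 (0.260%) and lower in 10 (0.519%) of 1926. Alternative first exons had 0 (0.00%) higher and 1 (0.322%) lower of 311, and alternative last exons 4 and 4 (4.40% each) of 91. Lims1, a focal adhesion adaptor, used a donor that adds 49 nt at a psi of 0.389 and 0.322 in KO-named cells and 0 and 0 in basal-named cells (adjusted p = 0.000205). Wnk1, a kinase of ion transport, had 0.510 and 0.642 for an acceptor part of 330 nt in KO-named cells and 0.0829 and 0.171 in basal-named cells (adjusted p = 0.000267). Kctd17 retained a 58-nt intron part at 0.486 and 0.421 in KO-named cells and 0.865 and 0.879 in basal-named cells (adjusted p = 3.58e-07). The adhesion molecule Ncam1 ended in a 305-nt last exon part at 0.770 and 0.823 in KO-named cells and 0.17 and 0.20 in basal-named cells (adjusted p = 3.57e-20). Small as it is, that p-value borrows its spread from the 91 last exon nodes and not from replicate cultures. The single first exon called was in Cdkn2a, the locus of the cell cycle inhibitors Ink4a and Arf, with 0.242 and 0.227 in KO-named cells and 0.382 and 0.388 in basal-named cells.

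Rescue-named cells stood nearer basal-named cells at most called cassette exons and nearer KO-named cells in many gene levels. Of the 117 called cassette parts, 6 were nearer KO-named cells and 100 nearer basal-named cells in both treatments (5.13% and 85.5%, beside 21.4% and 32.8% of all 3615 parts compared). Fewer parts of other types were called, and not all stood the same way: of 10 retained introns included less, 4 were nearer KO-named and 4 nearer basal-named cells. Of the 1276 called genes described next, 659 were nearer KO-named and 428 nearer basal-named cells (51.6% and 33.5%, beside 35.3% and 32.5% of all genes tested). On a scale where 0 is the KO-named mean and 1 the basal-named mean, the median called cassette part was at 0.815 (quartiles 0.710 and 0.933) and the median called gene at 0.401 (0.133 and 0.687). The difference between exons and genes was not tested, since each line has 1 library per treatment and called features were chosen from the same KO-named and basal-named values that set the scale.

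**Figure D3:**
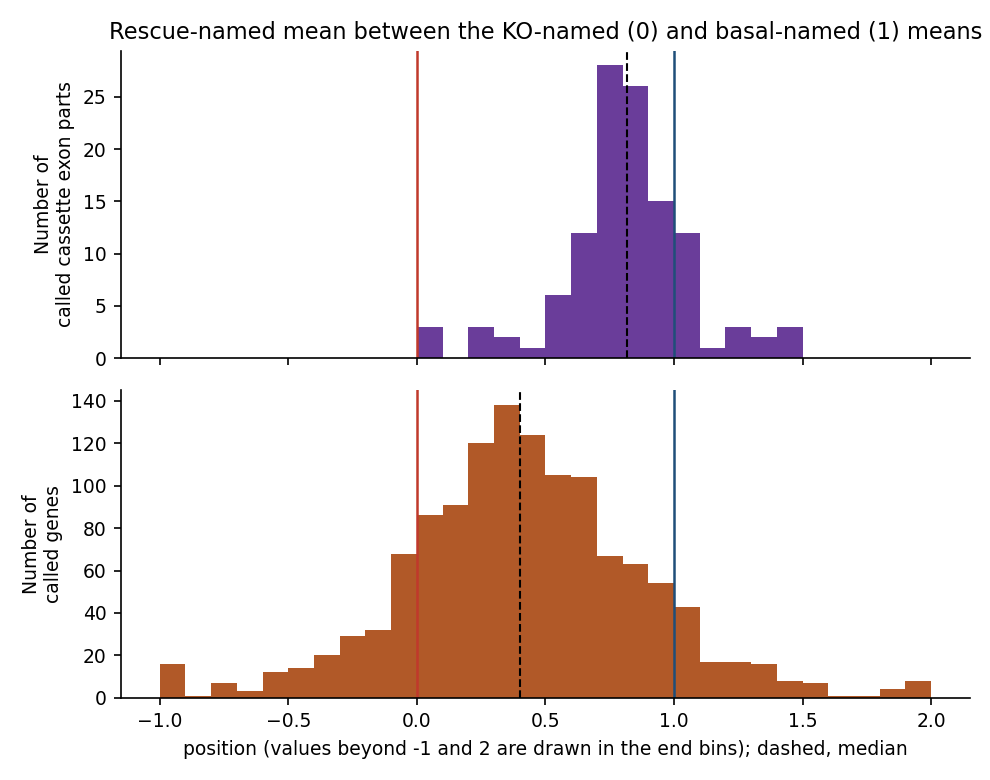
Position of the rescue-named mean between the KO-named mean (0, red line) and the basal-named mean (1, blue line), for the 117 called cassette exon parts (top) and the 1276 called genes (bottom). The vertical axis counts parts or genes per bin of 0.1, and the dashed line is the median, at 0.815 for exon parts and 0.401 for genes.

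At gene level, 1276 of 12485 tested genes were called (10.2%), 601 higher (4.81%) and 675 lower (5.41%) in KO-named cells, with 4535 at an unadjusted p under 0.05. The fit had TNF as a block and 1 residual degree of freedom, which is the difference of the line effect between rest and TNF. Its p-values set the line effect against that difference and not against replicate cultures, so adjusted p-values gather between 0.0164 and the threshold of 0.05. Without the TNF block it called 17 genes. A fit over all 6 libraries called 4203, and that fit called 4054 without the KO-named library at rest, 3331 without KO-named TNF, 2629 without basal-named rest and 1842 without basal-named TNF. By size alone, 373 genes (2.99%) were at least 2-fold higher and 730 (5.85%) at least 2-fold lower in both treatments. Across all genes tested the line difference at rest and the line difference under TNF had a Pearson correlation of 0.741, from libraries that the contrasts do not share, and genes are not independent replicates.

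Genes of the dividing cell were higher in KO-named cells. All 26 tested mitosis genes rose, with a median log2 fold change of 1.35, beside 0.01 for all genes. Of all genes tested, 4.81% were called higher and 5.41% lower. Ccnb1, the cyclin that drives entry into mitosis, was at 142.5 and 138.7 CPM in KO-named cells and 37.0 and 32.6 CPM in basal-named cells (2.02 ± 0.10, adjusted p = 0.0221). Aurkb, a kinase of the chromosomal passenger complex, was at 51.2 and 55.7 CPM in KO-named cells and 17.2 and 16.7 CPM in basal-named cells (1.66 ± 0.10). Mki67, the usual mark of cycling cells, was at 506.4 and 490.6 CPM in KO-named cells and 203.6 and 147.2 CPM in basal-named cells (1.53 ± 0.14). For each of these genes both KO-named libraries stood above both basal-named libraries. All 26 mitosis genes were also called in each of the 4 fits that leave out 1 library, and 0 were called without the TNF block.

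The replication machinery was higher too. Of 32 tested DNA replication genes 24 rose and 0 fell, beside 4.81% of all genes tested called higher and 5.41% lower. All 32 had a log2 fold change above 0 (median 1.16). Mcm5, a subunit of the replicative helicase, was at 190.4 and 204.3 CPM in KO-named cells and 66.3 and 53.8 CPM in basal-named cells (1.73 ± 0.14). Of 16 cyclins and their kinases 10 rose and 1 fell (6 and 1 with the second quantification). Ccna2 (1.93 ± 0.13) and Ccne2 (2.08 ± 0.16) were among those that rose, and Cdk6, a kinase of early G1, was at 8.50 and 19.6 CPM in KO-named cells and 16.6 and 36.1 CPM in basal-named cells (-0.92 ± 0.12). The Cdk6 call was lost over all 6 libraries (-0.93, adjusted p = 0.0718), and there also without basal-named rest (-0.63), basal-named TNF (-1.25) or KO-named TNF (-0.68). The transcription factors Foxm1 (1.53 ± 0.11), Mybl2 (1.80 ± 0.19) and E2f8 (2.18 ± 0.16) rose, the other 12 of 15 in their list did not pass, and Cdkn2b, an inhibitor of Cdk4 and Cdk6, fell to 34.2 and 24.4 CPM in KO-named cells, against 105.7 and 109.6 CPM in basal-named cells (-1.89 ± 0.18). In rescue-named cells Ccnb1 was at 103.2 and 96.0 CPM, and 20 of 26 mitosis genes and 21 of 24 called replication genes stood nearer the KO-named cells in both treatments. Without the TNF block 0 of the 32 replication genes, 1 of the 16 cyclins and kinases and 0 of the 15 transcription factors were called. Neither growth rate nor SV40 was compared here, and their part was not tested.

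**Figure D4:**
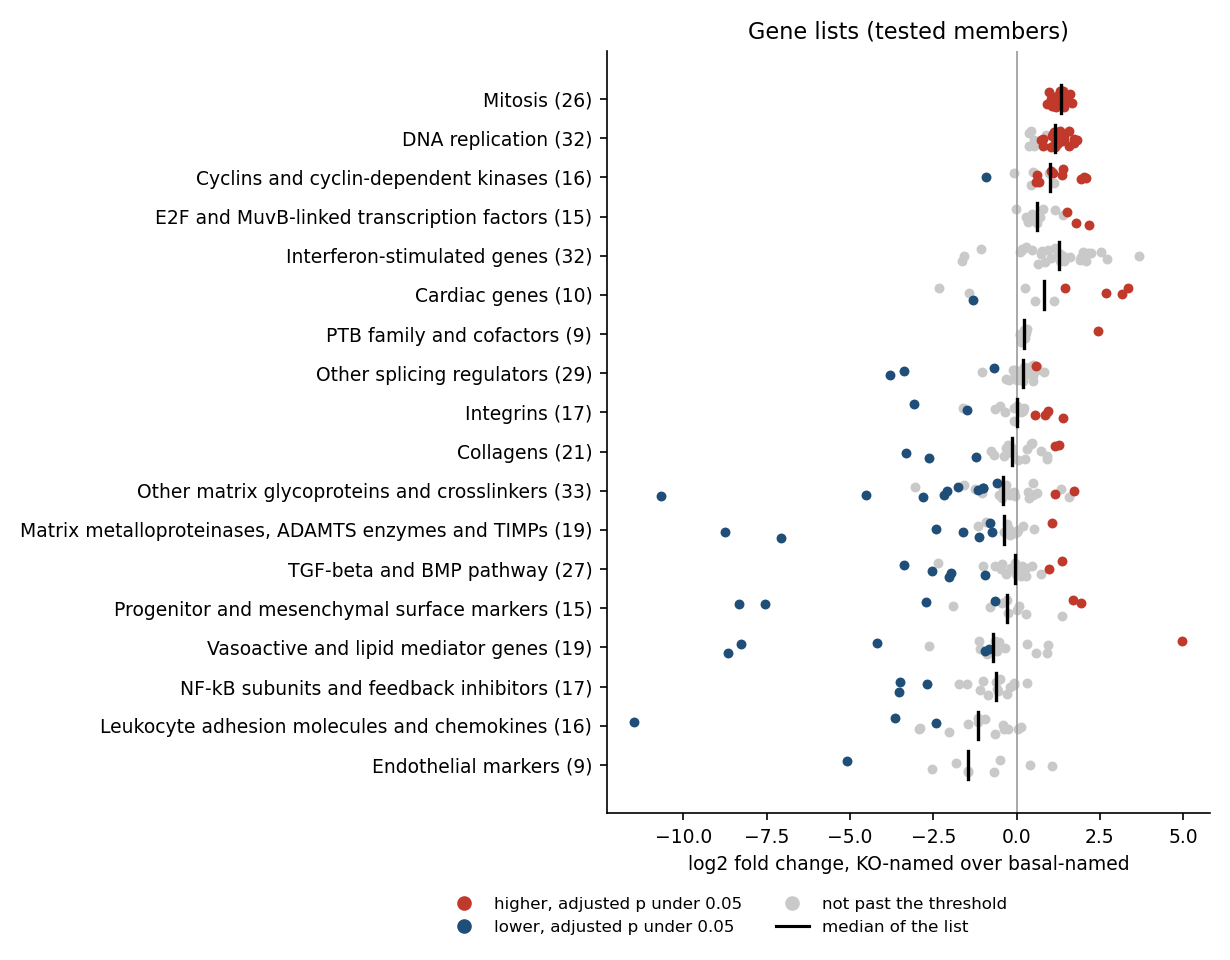
Log2 fold change (horizontal, KO-named over basal-named) of each tested member of 18 gene lists, with the number of tested members in brackets. Red points are called higher, blue points called lower and grey points not called at an adjusted p of 0.05, and black bars are list medians. All 26 mitosis genes lie above 0 with a median of 1.35, while the 16 adhesion molecules and chemokines have a median of -1.15.

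Surface markers of mesenchymal and progenitor cells were lower in KO-named cells where they differed most. Cd34, a sialomucin of progenitor and endothelial cells, was at 0.885 and 0.961 CPM in KO-named cells (18 and 19 counts) and 166.9 and 184.1 CPM in basal-named cells (-7.56 ± 0.12, adjusted p = 0.0164). Thy1, a marker of fibroblasts and stromal progenitors, was at 0.197 and 0.101 CPM in KO-named cells and 62.4 and 36.5 CPM in basal-named cells (-8.31 ± 0.19). Pdgfra, the receptor that marks fibroblast-like cells, was at 63.7 and 66.6 CPM in KO-named cells and 461.5 and 406.1 CPM in basal-named cells (-2.73 ± 0.11). In rescue-named cells these 3 stood near KO-named levels: Cd34 was at 0.625 and 0.546 CPM, Thy1 at 0.178 and 0.0992 CPM and Pdgfra at 66.0 and 72.2 CPM. Alcam (1.94 ± 0.25) and Mcam (1.70 ± 0.27), both adhesion molecules of the immunoglobulin family, were higher in KO-named cells. In all, 2 of 15 tested members rose and 4 fell, beside 4.81% of all genes tested called higher and 5.41% lower. The other 9 were not called, and the list had a median log2 fold change of -0.30. With the second quantification 1 rose and 3 fell, and Alcam was not called.

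Matrix genes were split, beside 4.81% of all genes tested called higher and 5.41% lower. Of 33 matrix glycoproteins and crosslinkers 2 rose and 10 fell (median -0.39), of 19 matrix proteases and their inhibitors 1 rose and 7 fell (median -0.36; 4 fell with the second quantification), and of 21 collagens 2 rose and 3 fell (1 and 3 with the second quantification, which did not call Col4a1). Efemp1, a fibulin of elastic fibres, had 3 counts over both KO-named libraries (0.147 and 0 CPM) and 157.98 and 100.01 CPM in basal-named cells, where it was 1714-fold higher by counts (95% counting interval 586.0 to 8312). Mmp2, a gelatinase, was at 0.344 and 0.607 CPM in KO-named cells and 233.7 and 180.5 CPM in basal-named cells (-8.74 ± 0.30), and Lama4, a laminin chain of vessel basement membrane, at 5.75 and 5.16 CPM in KO-named cells and 91.3 and 174.8 CPM in basal-named cells (-4.53 ± 0.34). In rescue-named cells Mmp2 stood between the 2 lines, at 49 and 22 CPM, whereas Efemp1 stood at 0.491 and 0.397 CPM. Ltbp2 (-2.17 ± 0.18) and Fbln2 (-1.75 ± 0.10), both of elastic fibres, also fell. Lama5, the other main laminin chain of vessels, rose to 139.0 and 222.7 CPM in KO-named cells, against 43.0 and 65.7 CPM in basal-named cells (1.73 ± 0.09), with the adhesive glycoprotein Thbs1 (1.14 ± 0.10) and the basement membrane collagen Col4a1 (1.29 ± 0.21). The Thbs1 call was lost over all 6 libraries (1.14, adjusted p = 0.0737), and there also without basal-named rest (0.82), basal-named TNF (1.54) or KO-named TNF (0.74). Of 17 integrins 4 rose and 2 fell, Itga6, a laminin receptor chain, being at 20.2 and 57.5 CPM in KO-named cells and 8.70 and 19.9 CPM in basal-named cells (1.38 ± 0.13).

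Signalling genes of several kinds differed one by one, and their counts can be read beside the 4.81% of all genes tested that were called higher and 5.41% lower. Of 27 tested TGF-beta and BMP genes 2 rose and 5 fell (0 and 4 with the second quantification, which did not call Bmp4): Inhbb, an activin subunit, was at 16.9 and 17.5 CPM in KO-named cells and 96.4 and 104.1 CPM in basal-named cells (-2.54 ± 0.10), and the co-receptor Tgfbr3 fell (-1.98 ± 0.10) while the ligand Bmp4 rose (1.36 ± 0.17). Of 19 vasoactive and lipid mediator genes 1 rose and 5 fell. Ptgis, the synthase of prostacyclin, was at 0.0492 and 0.152 CPM in KO-named cells and 28.9 and 35.7 CPM in basal-named cells (-8.25 ± 0.28). S1pr3, a sphingosine 1-phosphate receptor, had 3 counts over both KO-named libraries, and its level by counts was 458.0-fold higher in basal-named cells (95% counting interval 156.4 to 2223). Pde2a, a phosphodiesterase of cyclic nucleotides, was the member that rose, at 48.1 and 46.6 CPM in KO-named cells and 1.42 and 1.59 CPM in basal-named cells (4.97 ± 0.15). Of 26 receptor tyrosine kinases 0 rose and 3 fell by edgeR, Egfr among them (-1.31 ± 0.09), and of 18 Wnt genes 2 rose and 0 fell, one being the nuclear effector Lef1 (1.98 ± 0.21), while 0 of 18 rose with the second quantification.

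Some genes of other lineages differed. Of 10 tested cardiac genes 4 rose and 1 fell, beside 4.81% and 5.41% of all genes tested, while of 9 with a value in the second quantification 1 rose and 1 fell, Tnnt2 not being called. The list held the transcription factor Gata4 at 29.6 and 20.8 CPM in KO-named cells and 2.54 and 2.36 CPM in basal-named cells (3.35 ± 0.19), and its relative Gata6 was lower (-1.31 ± 0.13). Tnnt2, cardiac troponin T, was at 17.8 and 35.2 CPM in KO-named cells and 3.71 and 2.02 CPM in basal-named cells (3.16 ± 0.52). Both epithelial list members that rose of 5 tested, the cornified envelope gene Sprr1a (4.34 ± 0.30) and the water channel Aqp5 (3.62 ± 0.41), came with 11 of 15 epithelial markers under 1 CPM in all 4 libraries. Without basal-named TNF, Aqp5 just missed the threshold (3.42, adjusted p = 0.0520). Neuronal markers, of interest because PTB proteins repress neuronal exons, had 1 of 9 tested members higher and 2 lower (0 and 1 of 7 with the second quantification). Map2, a dendrite microtubule protein, was at 157.8 and 78.9 CPM in KO-named cells and 65.9 and 17.9 CPM in basal-named cells (1.70 ± 0.25), and Ank3, the ankyrin of the axon start, was lower (-1.86 ± 0.11), while Rbfox3, Dcx, Nefl, Nefm and Neurod1 were listed at 0.

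Among called genes of 10 CPM or more in both libraries of a line, 1011 in all, the 12 largest rises and 12 largest falls were taken for naming. The rises not yet given were Tmem146, a subunit of a sperm ion channel (5.26 ± 0.46), Mdga1 (3.81 ± 0.16), the cadherin Cdh13 (3.22 ± 0.27), the actin adaptor Sorbs2 (2.94 ± 0.40), Olfm1 (2.88 ± 0.20), Syt13 (2.78 ± 0.34) and the kidney progenitor factor Six2 (2.76 ± 0.19). The second quantification called neither Sorbs2 nor Syt13. Tmem146 stood at 12.2 and 12.4 CPM in KO-named cells and 0.509 and 0.144 CPM in basal-named cells. Other falls were the guidance ligand Slit3, 5730409E04Rik (-7.41 ± 0.66), Igsf10 (-6.26 ± 0.75), Gnpda2, an enzyme of amino sugars (-5.85 ± 0.27), and the kinase Dapk1 (-5.23 ± 0.23). Slit3 had 2 counts over both KO-named libraries and was 323.2-fold higher in basal-named cells by counts (95% counting interval 89.1 to 2674).

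In inflammatory gene lists the median log2 ratio between the lines was further below 0 under TNF than at rest, a difference between treatments that was not tested. Of 17 NF-kB subunits and feedback inhibitors 0 rose and 3 fell by edgeR, beside 4.81% of all genes tested that were called higher and 5.41% lower, with a median log2 ratio of -0.18 at rest and -1.50 under TNF. Bcl3, a nuclear cofactor of NF-kB, was at 1.82 and 3.08 CPM in KO-named cells and 11.2 and 58.4 CPM in basal-named cells (-3.52 ± 0.47), and Birc3, an inhibitor of cell death downstream of the TNF receptor, at 3.74 and 8.39 CPM in KO-named cells and 15.3 and 79.0 CPM in basal-named cells (-2.68 ± 0.35). Of 16 adhesion molecules and chemokines 0 rose and 3 fell by edgeR, with medians of -0.30 at rest and -2.25 under TNF. Cxcl16 was at 0.639 and 13.4 CPM in KO-named cells and 10.3 and 153.5 CPM in basal-named cells (-3.65 ± 0.16), and the neutrophil chemokine Cxcl1 at 8.46 and 17.3 CPM in KO-named cells and 32.1 and 128.0 CPM in basal-named cells (-2.42 ± 0.29), a call lost with the second quantification (adjusted p = 0.0514). Cxcl5 had no count in KO-named cells and 1.98 and 33.7 CPM in basal-named cells, at least 119-fold lower in KO-named cells against a floor of 3 counts per library, and DESeq2 did not call it (adjusted p = 0.102). Vcam1, which captures leukocytes on the vessel wall, was at 46.5 and 217.3 CPM in KO-named cells and 114.4 and 1451 CPM in basal-named cells, and did not pass (-2.02 ± 0.42, adjusted p = 0.0637). Over all 6 libraries Vcam1 did pass (-1.97, adjusted p = 0.0214), as it did without basal-named rest (-2.34), KO-named rest (-2.74) or KO-named TNF (-1.29). In the 6-library fit 4 of 17 NF-kB genes fell, and 14 fell without KO-named rest, 8 without basal-named rest and 2 without basal-named TNF, while without KO-named TNF 2 rose and 4 fell. Of the adhesion molecules and chemokines 6 of 16 fell there, 13 without KO-named rest, 7 without basal-named rest and 4 without basal-named TNF, while without KO-named TNF 4 rose and 6 fell.

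Interferon-stimulated genes stood above basal-named levels in the KO-named library at rest and on both sides of them under TNF. All 32 tested members were higher in KO-named than in basal-named cells at rest (median log2 ratio 2.74). Under TNF 13 of 32 were higher (median -0.21), and some stood well below, such as Gbp5 (-4.19) and Zbp1 (-3.18). Of the 32, 0 passed the test of a line effect common to both by edgeR and 2 rose by DESeq2. In the 6-library fit 1 rose, and 30 of 32 rose without KO-named TNF, 10 without basal-named TNF and 1 without basal-named rest, while without KO-named rest 4 rose and 6 fell. Ifit1, which blocks translation of viral RNA, was at 211.7 and 213.1 CPM in KO-named cells and 18 and 324.0 CPM in basal-named cells (1.44 ± 1.32, adjusted p = 0.477). Ifi44 was at 117.7 and 147.0 CPM in KO-named cells and 2.80 and 100.3 CPM in basal-named cells (2.70 ± 1.48, adjusted p = 0.270). In KO-named cells both genes thus stood high with and without TNF, and in basal-named cells they were high with TNF only. In rescue-named cells Ifit1 was at 9.64 and 54.2 CPM and Ifi44 at 1.2 and 9.03 CPM, so the resting level there was not raised. With 1 library per line and treatment, this difference between treatments has no replicate to be tested against.

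**Figure D5:**
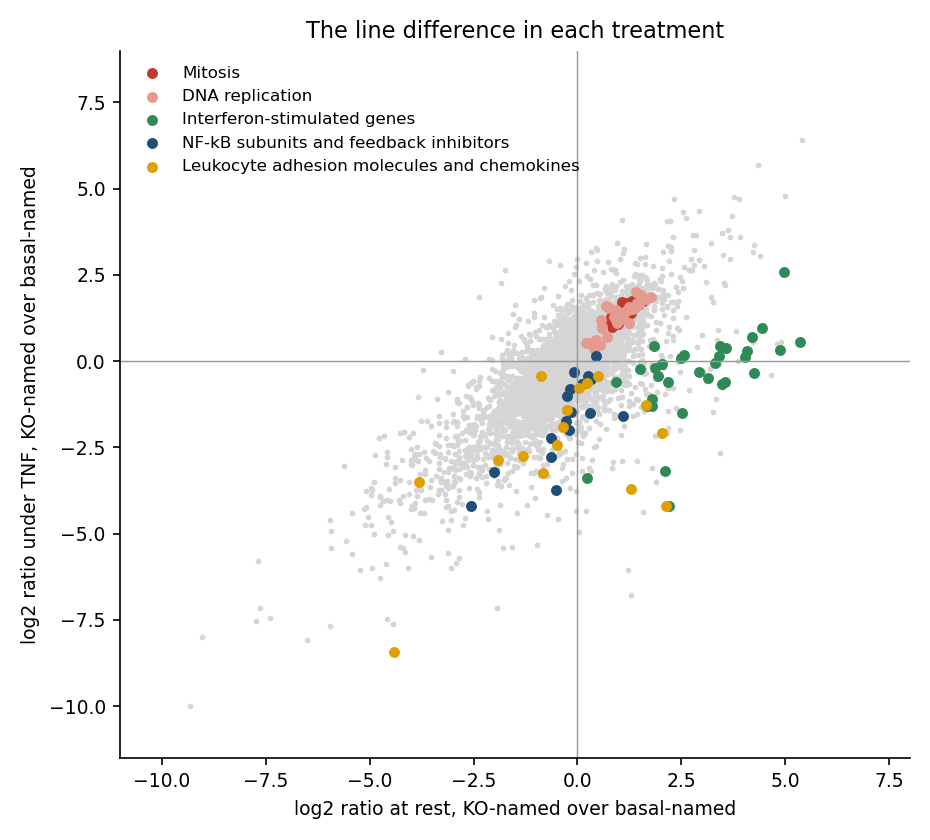
Log2 ratio of KO-named over basal-named libraries at rest (horizontal) and under TNF (vertical) for 12485 tested genes in grey, with 5 gene lists in colour. Mitosis and replication genes lie near the diagonal above 0 in both treatments, interferon-stimulated genes lie to the right (median 2.74 at rest, -0.21 under TNF), and NF-kB genes, adhesion molecules and chemokines lie mostly below 0 under TNF.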

How the data were processed

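RNA sequencing was measured in 6 libraries, of which the 4 KO-named and basal-named ones were compared, grouped by deposited file name. The members, the 31 gene lists and the added splicing fit were chosen with earlier results of these data known, and settings named as added were chosen after seeing the data. Messenger RNA libraries were made with a SMARTER kit, per the labels' protocols.

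The authors deposited expected counts and TPM values per gene (per transcript for the KO-named library at rest, summed here to genes), made with RSEM per the submitters' processing notes, in which no version is named. They also deposited estimated counts per gene from a second quantification, psi as a fraction with the estimated reads behind it, and whole counts of reads per splice junction, per the file headers. The aligner, genome build and splicing tool are not given in the sources used here. Of tested cassette exon parts 99.9% had both edges in GENCODE vM21, so coordinates are GRCm38. The deposited transcript TPM values of the second quantification were not used.

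Expected counts were rounded, and the row without a gene name (0.0735% to 0.0927% of counts) was left out. Of 21674 genes, 12485 passed filterByExpr and were tested with edgeR 4.0.16 (quasi-likelihood, TMM, TNF as block, R 4.3.3), adjusted by Benjamini-Hochberg at 0.05. Single-library ratios used a prior count of 2. Levels are TMM-scaled CPM. Splicing nodes with 20 or more reads were tested with limma 3.58.1 on log odds (pseudocount 0.5) over all nodes. The added fit took nodes with a mean psi of 0.05 to 0.95, weighted by reads and adjusted within each node type. Both were tested on simulated data with 200 planted changes of 0.3 in psi, of which the first found none. The added one found 85.5% of them and made 15 false calls, among 2998 simulated nodes. Smaller changes were not planted, and the simulated spread was not taken from replicate cultures. The text names genes of the lists and, among called genes of at least 10 CPM in both libraries of a line, the 12 highest and 12 lowest, with 10 cassette parts each way, 3 of each other type each way at most, and the called nodes of PTB-linked genes. Some genes that this rule takes are not reported here. The Ctnnd1 and Dnm1 exons were picked after their values were seen, as examples of short exons. Alternatives were other size factors, filters, tools, samples and groupings, and leaving out each library.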

Additional observations from a re-analysis of the deposited data

Results flagged for a closer look

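A set of 52 genes was at least 2-fold apart between the lines in opposite directions at rest and under TNF. This was flagged because the KO-named library stood on one side of the basal-named library in 1 treatment and on the other side in the other. The difference between treatments was not tested, since each line had 1 library per treatment. Among the genes named here it was seen in 3. The chemokine Ccl5 had a log2 ratio of KO-named over basal-named of 2.14 at rest and -4.19 under TNF, from 33.8 and 91.8 CPM in KO-named cells and 7.58 and 1680 CPM in basal-named cells. The interferon-induced GTPase Gbp5 had 2.20 at rest and -4.19 under TNF. The nucleic acid sensor Zbp1 had 2.11 at rest and -3.18 under TNF.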

How the results depend on the processing

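Gene calls depended on how the libraries were grouped and on the spread they were set against. Against 1276 called genes, the count was 4203 with all 6 libraries in the fit, 756 with the second quantification, 17 without the TNF block and 0 under the labels' groups. It was between 1842 and 4054 when 1 library was left out: 2629 without basal-named rest, 4054 without KO-named rest and 3331 without KO-named TNF. Other size factors (1334), DESeq2 (1826) and no low-count filter (1423) stayed within 1.5 times. The planned splicing fit called 0 nodes in all its alternatives, leave-one-out fits included, except 228 without the TNF block, and made no call on simulated data with planted changes, so its 0 carries little weight. Against 117 cassette parts in the added fit, no weights gave 30, the arcsine scale 239, all 6 libraries 194 and the labels' groups 0, and leaving out 1 of the 6 gave between 39 and 200. The count of genes 2-fold apart in both treatments, 1103, was 653 with TPM and a pseudocount of 1. The causes were not tested. Beyond the TNF block, which sets the lines against each other within a treatment, no paired analysis was possible because the labels carry no replicate numbers. The planned search for pyrimidine motifs beside called exons was not run, since it needs a genome. Libraries were left out of the 6-library fit, in which the remaining library is taken to vary like the other lines.

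Among 70 named genes, no direction changed with other size factors, DESeq2, no filter, all 6 libraries, no TNF block or the second quantification (67 had a value there). Without the TNF block 50 of the 70 lost their call, and with the second quantification 10 did (Alcam, Bmp4, Col4a1, Cxcl1, Lef1, Rbm47, Sorbs2, Srsf7, Syt13 and Tnnt2, at adjusted p between 0.0514 and 0.0909). When basal-named rest was left out, Ptbp1 had -0.00924 and Ptbp3 -0.0727, and their fold changes ranged up to 0.21 and 0.51 when other libraries were left out. Ifit1 ranged between -0.31 and 3.10 (negative without KO-named rest), Ccl5 between -4.25 and 2.27, Gbp5 between -4.18 and 2.12 and Zbp1 between -3.11 and 1.77. The last 3 were positive without basal-named TNF (1.22, 1.47 and 1.49) and without KO-named TNF. When a library was left out, the psi difference of a cassette part was that of the other treatment alone. Since a call needed the same direction in both treatments, no named part could change direction. Many of the 35 named parts lost their call without KO-named TNF or without KO-named rest.

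Under the labels' groups (the knockout labels over the parental labels) most named values turned round and none passed. In that grouping the KO-named and basal-named libraries with TNF change sides, and the rescue-named library at rest stands in place of the KO-named one. Log2 fold changes that became negative were Tmem146 -3.35, Syt13 -2.08, Sprr1a -1.81, Tnnt2 -1.70, Alcam -1.17, Aqp5 -1.07, Cdh13 -1.03, Map2 -0.99, Pde2a -0.97, Sorbs2 -0.95, Tpm2 -0.85, Ifi44 -0.79, Ptbp2 -0.76, Bmp4 -0.64, Mdga1 -0.59, Ccna2 -0.57, Ptbp1 -0.48, Mki67 -0.47, Foxm1 -0.47, Mcm5 -0.43, E2f8 -0.31, Ccnb1 -0.30, Mcam -0.29, Six2 -0.28, Itga6 -0.26, Ccne2 -0.24, Aurkb -0.22, Thbs1 -0.20, Col4a1 -0.19, Ifit1 -0.14, Srsf7 -0.0693 and Mybl2 -0.0528. Those that became positive were Egfr 0.00479, Cxcl16 0.16, Ank3 0.23, Gata6 0.25, Cxcl1 0.36, Efemp1 0.37, Bcl3 0.39, Tgfbr3 0.44, Rbpms 0.47, Fbln2 0.69, Cdkn2b 0.70, Ltbp2 0.85, Vcam1 0.99, Birc3 1.15, Inhbb 1.27, Zbp1 1.28, Ccl5 1.40, Rbm47 1.40, Gbp5 1.504, S1pr3 1.69, Dapk1 1.69, 5730409E04Rik 2.11, Igsf10 2.17, Gnpda2 2.19, Mmp2 2.64, Slit3 3.05 and Cxcl5 4.36. Psi differences became negative for Phldb2 (183 nt) -0.318, Tpm2 (76 nt) -0.314, Palld (51 nt) -0.298, Dpf2 (42 nt) -0.282, Dennd1a (129 nt) -0.279, Pbrm1 (104 nt) -0.277, Kansl3 (78 nt) -0.256, Mical2 (108 nt) -0.249, Trip10 (168 nt) -0.225, Col4a3bp (78 nt) -0.217, Gabbr1 (151 nt) -0.211, Mef2d (21 nt) -0.202, Lrrfip1 (78 nt) -0.2, Exoc7 (39 nt) -0.162, Lrrfip1 (48 nt) -0.124, Lrrfip1 (18 nt) -0.12, Lrrfip1 (51 nt) -0.105, Lrrfip1 (93 nt) -0.0878, Dlg4 (110 nt) -0.086 and Pkm (167 nt) -0.073. They became positive for Pkm (167 nt) 0.073, Osbpl9 (39 nt) 0.136, Picalm (24 nt) 0.153, Mlkl (50 nt) 0.169, Flnc (99 nt) 0.18, Arhgef11 (30 nt) 0.207, Glmp (1 nt) 0.21, Scarb1 (129 nt) 0.241, Myof (39 nt) 0.252, Ktn1 (84 nt) 0.26 and Tpm2 (76 nt) 0.314.

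Depth limits the weakest splicing values: 20 reads was the least behind a psi, and differences under 0.1 were not called. Genes with 3 counts or fewer in a line have levels that counting error alone leaves wide.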
